A study of Mus musculus with 2 samples.

Results

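The genes that write and erase methyl groups on histones and other proteins were examined in mouse testis. The group holds 55 protein-coding genes of 43346 genes in the tables, 21558 of them protein-coding. Members were all protein-coding genes named Kdm, Kmt, Setd, Prdm or Prmt followed by a digit, with 1 gene left out by the rule. There were 18 Kdm genes (lysine demethylases), 8 Kmt genes (lysine methyltransferases), 8 Setd genes (SET domain proteins), 13 Prdm genes (zinc finger proteins with a PR domain) and 8 Prmt genes (arginine methyltransferases). The study sequenced polyA mRNA from whole testis of 1 adult male of the inbred mouse strain C57BL/6J, at 10 weeks of age, with no treatment or mutation given in the labels. Technical replicate 2, made later, and technical replicate 1 are 2 libraries of that animal, so the series has 1 group and no condition to compare. Differences between the libraries describe these libraries and no biological change, and no value has a replicate across animals.

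Levels are given in TPM, which corrects for transcript length and sequencing depth, so that genes can be compared. The gene tables held 20675551 expected counts in replicate 2 and 31995372 in replicate 1, and a count of 0 allows up to 0.145 CPM in replicate 2 and 0.0938 in replicate 1. They differed by far more than sampling noise, with a chi-square of 577 per degree of freedom between their counts of 18581 genes. All 8 germ cell markers examined were detected, with summed levels of 25926 TPM in replicate 2 and 10324 TPM in replicate 1. The spermatid genes Prm1 (10087 TPM in replicate 2 and 3011 TPM in replicate 1) and Tnp1 (9611 TPM in replicate 2 and 1008 TPM in replicate 1) held most of that sum in replicate 2. The meiotic gene Sycp3 stood at 263 TPM in replicate 2 and 807 TPM in replicate 1. The germ cell genes Ddx4 and Dazl stood at 319 and 99.4 TPM in replicate 2 and at 692 and 273 TPM in replicate 1. Acrv1 stood at 372 TPM in replicate 2 and 388 TPM in replicate 1, and Pgk2 at 1045 TPM in replicate 2 and 1294 TPM in replicate 1. Ldhc stood at 4131 TPM in replicate 2 and 2850 TPM in replicate 1. Markers of Leydig cells summed to 1975 TPM in replicate 2 and 400 TPM in replicate 1, and Sertoli cell markers to 162 TPM in replicate 2 and 149.7 TPM in replicate 1. Of the Leydig cell markers, Insl3 stood at 1630 TPM in replicate 2 and 83.2 TPM in replicate 1, while Cyp17a1 stood at 242 TPM in replicate 2 and 225 TPM in replicate 1. The 2 red blood cell markers summed to 129.9 TPM in replicate 2 and 14.8 TPM in replicate 1. Of 3 epididymis markers, Lcn5 was listed at 0 in both libraries, while Crisp1 stood at 19.3 TPM in replicate 2 and 53.8 TPM in replicate 1. Both libraries are of the same animal, so these gaps describe the libraries and not its cells. For the level of a gene in RNA from whole testis, fewer cells of a type and less RNA per cell cannot be told apart.

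Methyltransferases with a SET domain add methyl groups to lysines, and arginine methyltransferases add them to arginines, both with S-adenosylmethionine as the donor. Demethylases of the LSD type use a flavin cofactor, and those with a Jumonji domain use iron and 2-oxoglutarate. Methylation of histone H3 at lysine 4 (H3K4) marks promoters and enhancers, H3K36 methylation marks transcribed genes, and H3K9, H3K27 and H4K20 methylation mark repressed or condensed chromatin. In male germ cells these marks are rewritten through meiosis and again before histones are replaced by protamines.

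Most of the methylation enzyme genes were expressed. Detection required at least 1 TPM in each library, which 40 of 55 members reached, or 72.7%, against 54.4% of all protein-coding genes. The members' median level was 10.4 TPM in replicate 2 and 5.17 TPM in replicate 1, and the median of their mean levels over the libraries, 7.365 TPM, lay at percentile 58.1 of protein-coding genes. Detection was 15 of 18 in the Kdm genes, 7 of 8 in the Kmt genes, 6 of 8 in the Setd genes, 6 of 13 in the Prdm genes and 6 of 8 in the Prmt genes. Of the 15 members not detected, 10 passed 1 TPM in a single library, in each case replicate 2, and 5 stayed below it in both. Members with a level of 10 TPM or more in both libraries numbered 19, and 8 of these were Kdm genes. Across the 52 members with reads in both libraries the levels had a Spearman rho of 0.753, against 0.835 over 17167 protein-coding genes, as a description across genes that share depth and libraries.

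**Figure D1:**
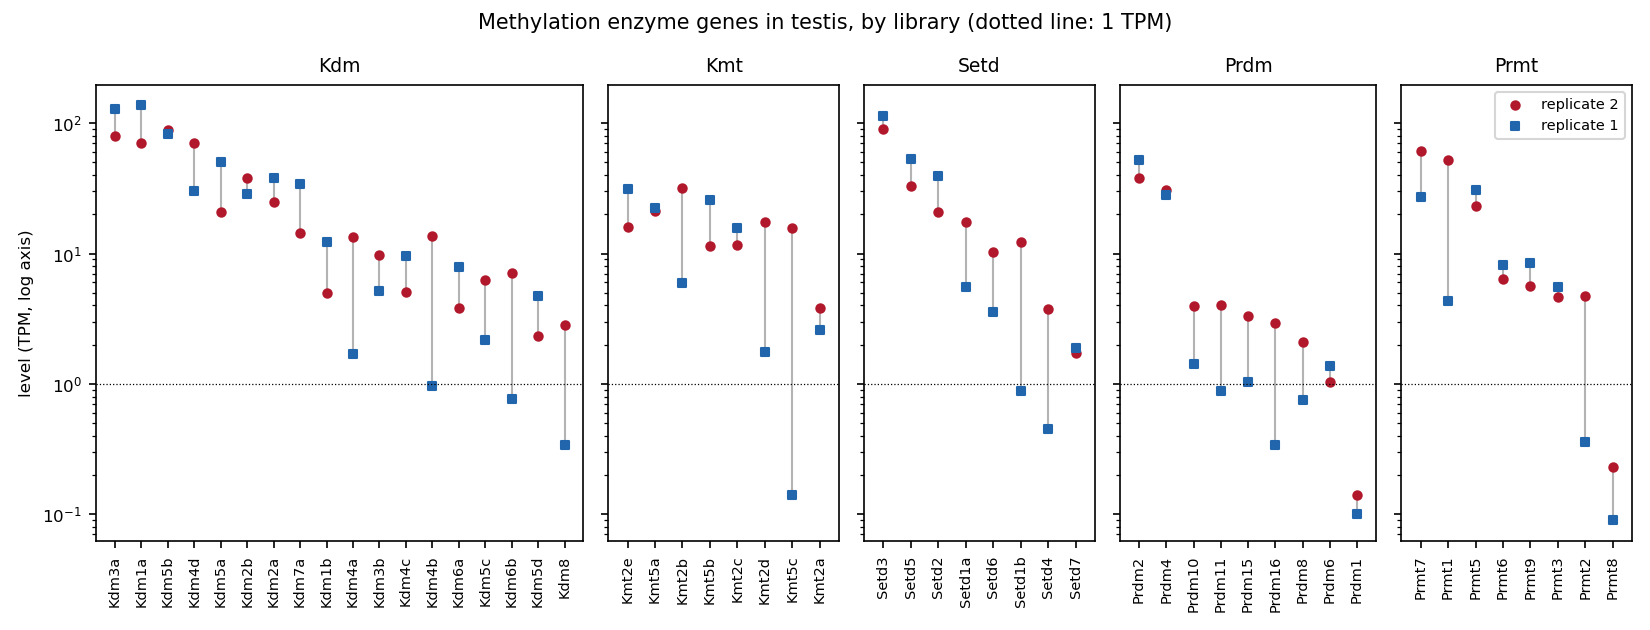
Level of each member in TPM (log axis) in replicate 2 (red circles) and replicate 1 (blue squares), by subfamily and ordered by mean level; 3 Prdm genes listed at 0 in replicate 2 and 1 member not reported here are left out. Kdm3a, Kdm1a, Kdm5b and Setd3 have the highest mean levels, and most members with a wide gap are higher in replicate 2.

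Of the 4 highest members by mean level, 3 were demethylases of H3K9 or H3K4 and the fourth was Setd3. Kdm3a (ENSMUSG00000053470.9, chromosome 6, 71588972 to 71632990) on mm10 encodes an H3K9 demethylase that mouse spermatids need for transcription of protamine and transition protein genes. It reached 80.4 TPM in replicate 2 and 129 TPM in replicate 1, from 5113 estimated reads in replicate 2 and 12999 in replicate 1. Kdm1a (ENSMUSG00000036940.11, chromosome 4, 136550540 to 136602723) encodes LSD1, a flavin-dependent H3K4 demethylase, and reached 70.9 TPM in replicate 2 and 137 TPM in replicate 1. Kdm5b (ENSMUSG00000042207.13, chromosome 1, 134560171 to 134635285) encodes a Jumonji H3K4 demethylase and reached 88.6 TPM in replicate 2 and 82.45 TPM in replicate 1. By mean level each of these 3 genes lay above percentile 90 of protein-coding genes, Kdm3a at 91.8, Kdm1a at 91.7 and Kdm5b at 90.2. In replicate 2 alone Kdm3a lay at 88.97, Kdm1a at 87.7 and Kdm5b at 89.9, and in replicate 1 alone at 94.1, 94.4 and 91.1.

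To set the libraries side by side, expected counts were put to an exact conditional binomial test (two-sided), adjusted over all tested genes, and log2 ratios are replicate 2 over replicate 1 on the scale of normalised counts. Calls required a ratio of at least 2 beside an adjusted p under 0.05, which 56% of all 18581 tested genes met, 32.1% as higher in replicate 2 and 23.9% as higher in replicate 1. Kdm3a was called higher in replicate 1 (log2 ratio -1.01, adjusted p of 0 at the precision of the computation). Kdm1a was not called, with 2670 estimated reads in replicate 2 and 4051 in replicate 1 (log2 ratio -0.26, adjusted p = 3.17e-13). Kdm5b was not called either, with 7536 estimated reads in replicate 2 and 11548 in replicate 1 (log2 ratio -0.28, adjusted p = 8.45e-39). Both passed the p threshold but not the ratio limit.

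Among the other H3K4 demethylases, Kdm5a stood at 20.9 TPM in replicate 2 and 49.96 TPM in replicate 1. It was called higher in replicate 1, with 2104 estimated reads in replicate 2 and 5546 in replicate 1 (log2 ratio -1.06, adjusted p = 6.39e-198). Kdm1b (LSD2), known from mouse oocytes for its part in setting imprints, stood at 5 TPM in replicate 2 and 12.25 TPM in replicate 1. Its ratio missed the limit, with 248 estimated reads in replicate 2 and 592 in replicate 1 (log2 ratio -0.92, adjusted p = 6.30e-18). The 6 H3K4 demethylase genes together held 194 TPM in replicate 2 and 289 TPM in replicate 1, a sum that Kdm1a and Kdm5b led in both libraries.

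The members on the sex chromosomes stood below Kdm1a, Kdm5a and Kdm5b in both libraries, but such levels were not particular to them. In replicate 1 the autosomal Kdm4a (1.7 TPM), Kdm4b (0.96 TPM), Kdm6b (0.76 TPM) and Kdm8 (0.34 TPM) stood below Kdm5c, Kdm5d and Kdm6a. In replicate 2 Kdm8 (2.81 TPM) stood below Kdm5c and Kdm6a, while Kdm4a, Kdm4b and Kdm6b stood above these genes. A link of level to chromosome was not tested. Kdm5c and Kdm6a lie on X and Kdm5d on Y, and both sex chromosomes are silenced in meiotic spermatocytes. Kdm5c (chromosome X, 152233020 to 152274535), an H3K4 demethylase, stood at 6.24 TPM in replicate 2 and 2.19 TPM in replicate 1. Its Y-linked homologue Kdm5d (chromosome Y, 897788 to 956786) stood at 2.34 TPM in replicate 2 and 4.73 TPM in replicate 1. Kdm6a (UTX, chromosome X, 18162575 to 18279936), an H3K27 demethylase, stood at 3.79 TPM in replicate 2 and 7.82 TPM in replicate 1. The libraries ordered Kdm5c and Kdm5d in opposite ways. Kdm5c was called higher in replicate 2, with 495 estimated reads in replicate 2 and 282 in replicate 1 (log2 ratio 1.15, adjusted p = 2.65e-27). Kdm5d was called higher in replicate 1, with 149 estimated reads in replicate 2 and 425 in replicate 1 (log2 ratio -1.17, adjusted p = 4.32e-19), and so was Kdm6a, with 286 estimated reads in replicate 2 and 921 in replicate 1 (log2 ratio -1.35, adjusted p = 4.47e-49).

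Within the Kdm4 genes, which encode demethylases of trimethylated H3K9 and in part H3K36, Kdm4d stood highest. Kdm4d (ENSMUSG00000053914.9, chromosome 9, 14462548 to 14500482), known as the testis-enriched member in mouse, reached 70.6 TPM in replicate 2 and 30.4 TPM in replicate 1. Kdm4a (ENSMUSG00000033326.11, chromosome 4, 118136957 to 118180043) stood at 13.3 TPM in replicate 2 and 1.7 TPM in replicate 1. Kdm4d thus exceeded Kdm4a by a log2 TPM ratio of 2.41 in replicate 2 (interval 2.29 to 2.53) and 4.16 in replicate 1 (interval 3.92 to 4.40), with exact 95% intervals that cover counting error only. Kdm4b stood at 13.6 TPM in replicate 2 and 0.96 TPM in replicate 1 and Kdm4c at 5.08 TPM in replicate 2 and 9.65 TPM in replicate 1. Counts for Kdm4d were 2423 estimated reads in replicate 2 and 1648 in replicate 1, a ratio under the limit (log2 ratio 0.89, adjusted p = 4.88e-85). Kdm4a (log2 ratio 2.61, adjusted p = 7.68e-128) and Kdm4b (log2 ratio 4.54, adjusted p = 8.44e-182) were called higher in replicate 2, with 758 and 654 reads there and 157 and 35 reads in replicate 1. Kdm4c was called higher in replicate 1, with 271 estimated reads in replicate 2 and 828 in replicate 1 (log2 ratio -1.27, adjusted p = 1.25e-40).

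The RefSeq promoter windows of Kdm4d and Kdm4a are shown because these paralogues differed in the same direction in both libraries. Each runs from 250 bases before to 50 bases after the gene start on GRCm38.p6, is 300 bases long and lies on the minus strand, at chr9:14500433-14500732 for Kdm4d and chr4:118179994-118180293 for Kdm4a. Capitals mark CG dinucleotides, the sites of DNA methylation in mammals.
Kdm4d: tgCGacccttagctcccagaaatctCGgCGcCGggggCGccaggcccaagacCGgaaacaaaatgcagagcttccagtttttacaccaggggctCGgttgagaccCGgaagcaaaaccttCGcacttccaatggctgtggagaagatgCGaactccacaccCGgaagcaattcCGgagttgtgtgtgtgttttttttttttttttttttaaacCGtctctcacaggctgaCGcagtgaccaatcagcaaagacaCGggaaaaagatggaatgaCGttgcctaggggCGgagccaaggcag
Kdm4a: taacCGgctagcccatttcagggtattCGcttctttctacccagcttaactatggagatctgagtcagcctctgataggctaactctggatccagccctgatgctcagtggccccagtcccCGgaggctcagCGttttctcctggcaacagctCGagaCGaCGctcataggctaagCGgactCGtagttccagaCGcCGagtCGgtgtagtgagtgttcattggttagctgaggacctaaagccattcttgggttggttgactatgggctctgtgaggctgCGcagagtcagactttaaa
Kdm4d held 17 CG dinucleotides and Kdm4a 13. Windows were found for 43 of the 55 members, whose median was 21 CG dinucleotides, against 14 over 16522 protein-coding genes. Kdm7a had the most, 65, and Kdm4c had 0. The motif TGACG, the half-site bound by CREB and CREM factors, was searched on both strands. The Kdm4d window held it 2 times and the Kdm4a window 0 times. It occurred in 13 of the 43 member windows (30.2%) and in 24.4% of the windows of protein-coding genes, and the palindrome TGACGTCA in 1 member window, that of Prmt9, and in 2.41% of those of protein-coding genes. These matches describe letters in a window and not binding.

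The remaining demethylases covered H3K9, H3K36 and H3K27. Kdm3b, a relative of Kdm3a, stood at 9.77 TPM in replicate 2 and 5.17 TPM in replicate 1, with 927 estimated reads in replicate 2 and 776 in replicate 1 (log2 ratio 0.59, adjusted p = 5.04e-17). The 6 H3K9 demethylase genes of the Kdm3 and Kdm4 groups together held 193 TPM in replicate 2 and 177 TPM in replicate 1, most of it from Kdm3a and Kdm4d. Kdm2a and Kdm2b encode H3K36 demethylases that bind unmethylated CG-rich DNA. Kdm2a stood at 24.7 TPM in replicate 2 and 38.1 TPM in replicate 1 (1982 estimated reads in replicate 2 and 2743 in replicate 1, log2 ratio -0.13, adjusted p = 0.00263). Kdm2b stood at 37.97 TPM in replicate 2 and 28.55 TPM in replicate 1 (1516 estimated reads in replicate 2 and 1827 in replicate 1, log2 ratio 0.07, adjusted p = 0.196). Neither was called, and their sum was 62.7 TPM in replicate 2 and 66.6 TPM in replicate 1.

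Kdm6a and Kdm6b, the H3K27 demethylases of the Kdm6 group, lay near the median of protein-coding genes by mean level, Kdm6a at percentile 54.9 and Kdm6b at 50.2. Kdm6b (JMJD3) stood at 7.11 TPM in replicate 2 and 0.76 TPM in replicate 1 and was called higher in replicate 2 (598 estimated reads in replicate 2 and 106 in replicate 1, log2 ratio 2.83, adjusted p = 1.07e-110). With Kdm6a it summed to 10.9 TPM in replicate 2 and 8.58 TPM in replicate 1. Kdm7a, a demethylase of H3K9 and H3K27 with a PHD finger, stood at 14.5 TPM in replicate 2 and 34.3 TPM in replicate 1 and was called higher in replicate 1 (1821 estimated reads in replicate 2 and 6943 in replicate 1, log2 ratio -1.59, adjusted p of 0 at the precision of the computation). Kdm8, a Jumonji domain protein, was the lowest Kdm gene by mean level, at 2.81 TPM in replicate 2 and 0.34 TPM in replicate 1. The Kdm genes not detected by the rule were Kdm4b, Kdm6b and Kdm8, each above 1 TPM in replicate 2 alone.

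H3K4 methyltransferases of the Kmt2 and Setd1 groups are the catalytic subunits of COMPASS complexes. Setd1a and Setd1b carry out most H3K4 trimethylation in many cells, Kmt2a (MLL1) and Kmt2b (MLL2) act at selected promoters, and Kmt2c and Kmt2d act at enhancers. Their summed level was below that of the H3K4 demethylases, at 94.04 TPM in replicate 2 and 32.4 TPM in replicate 1. These sums were not corrected for GC content. Its median was 49.9% in the demethylase genes with a GC value and 56.3% in the methyltransferase genes. Among these methyltransferase genes the highest in replicate 2 was Kmt2b (ENSMUSG00000006307.12, chromosome 7, 30568858 to 30588726), which mouse spermatogonia need. Kmt2b stood at 31.6 TPM in replicate 2 and 5.91 TPM in replicate 1. Kmt2a stood at 3.85 TPM in replicate 2 and 2.58 TPM in replicate 1. Kmt2d stood at 17.5 TPM in replicate 2 and 1.77 TPM in replicate 1 and Kmt2c at 11.6 TPM in replicate 2 and 15.7 TPM in replicate 1. The highest in replicate 1 was therefore Kmt2c.

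Of these 6 H3K4 methyltransferase genes 4 were called, and all 4 were higher in replicate 2, as were 32.1% of all tested genes. Kmt2b had 2046 estimated reads in replicate 2 and 264 in replicate 1 (log2 ratio 3.29, adjusted p of 0 at the precision of the computation), and Kmt2d had 2122 estimated reads in replicate 2 and 367 in replicate 1 (log2 ratio 2.87, adjusted p of 0 at the precision of the computation). Setd1a stood at 17.3 TPM in replicate 2 and 5.56 TPM in replicate 1, with 1274 estimated reads in replicate 2 and 187 in replicate 1 (log2 ratio 3.10, adjusted p = 1.03e-257). Setd1b stood at 12.25 TPM in replicate 2 and 0.88 TPM in replicate 1, with 1128 estimated reads in replicate 2 and 126 in replicate 1 (log2 ratio 3.49, adjusted p = 1.35e-255). The median GC content of the 6 genes was 56.3%, and with ratios corrected for GC content, as described further on, Kmt2b, Kmt2d and Setd1a were not called and Setd1b was called higher in replicate 1. Kmt2a (761 estimated reads in replicate 2 and 838 in replicate 1, log2 ratio 0.20, adjusted p = 0.00831) and Kmt2c (1469 estimated reads in replicate 2 and 3008 in replicate 1, log2 ratio -0.70, adjusted p = 7.91e-54) did not reach the ratio limit.

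Kmt2e, whose SET domain has no known activity in mouse, stood at 16.1 TPM in replicate 2 and 31.4 TPM in replicate 1 and was called higher in replicate 1 (1514 estimated reads in replicate 2 and 4728 in replicate 1, log2 ratio -1.31, adjusted p = 9.87e-234). Its relative Setd5 stood at 32.7 TPM in replicate 2 and 53.5 TPM in replicate 1 and was not called (2100 estimated reads in replicate 2 and 4132 in replicate 1, log2 ratio -0.64, adjusted p = 3.05e-63). The H4K20 methyltransferases split by gene. Kmt5a, which adds the first methyl group to H4K20, stood at 21.1 TPM in replicate 2 and 22.2 TPM in replicate 1 and did not pass the test (649 estimated reads in replicate 2 and 884 in replicate 1, log2 ratio -0.11, adjusted p = 0.17). Kmt5b, which adds further methyl groups, stood at 11.4 TPM in replicate 2 and 25.8 TPM in replicate 1 (574 estimated reads in replicate 2 and 1402 in replicate 1, log2 ratio -0.95, adjusted p = 6.10e-43). Kmt5c (ENSMUSG00000059851.11, chromosome 7, 4740115 to 4747514), with the same activity, stood at 15.6 TPM in replicate 2 and 0.14 TPM in replicate 1 and had the largest ratio of all members (314 estimated reads in replicate 2 and 8 in replicate 1, log2 ratio 5.55, adjusted p = 4.59e-98). It was the Kmt gene not detected by the rule, although the sum of the 3 genes was 48.1 TPM in replicate 2 and 48.1 TPM in replicate 1.

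Setd3 led the Setd genes and lay at percentile 91.6 of protein-coding genes by mean level. Setd3 (ENSMUSG00000056770.11, chromosome 12, 108106431 to 108179314) encodes an actin histidine methyltransferase, and reached 90.2 TPM in replicate 2 and 114 TPM in replicate 1 (2719 estimated reads in replicate 2 and 4261 in replicate 1, log2 ratio -0.31, adjusted p = 2.23e-18). Setd2, the enzyme that trimethylates H3K36 behind elongating RNA polymerase, stood at 20.9 TPM in replicate 2 and 39.01 TPM in replicate 1 and was called higher in replicate 1 (2342 estimated reads in replicate 2 and 6909 in replicate 1, log2 ratio -1.22, adjusted p = 2.27e-308). Setd6, which methylates a subunit of NF-kappaB in human cells, stood at 10.4 TPM in replicate 2 and 3.57 TPM in replicate 1. Setd7, a methyltransferase of H3K4 and of many non-histone proteins, stood at 1.72 TPM in replicate 2 and 1.9 TPM in replicate 1. Setd4 stood at 3.73 TPM in replicate 2 and 0.45 TPM in replicate 1, and with Setd1b was not detected by the rule. Setd2 stood below the summed level of the H3K36 demethylases Kdm2a and Kdm2b in both libraries. That sets 1 gene against 2, and other H3K36 methyltransferases lie outside the named group. One of them, Nsd2, stood at 64.98 TPM in replicate 2 and 188 TPM in replicate 1.

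The Prdm genes were the lowest subfamily, with a median level of 2.92 TPM in replicate 2 and 0.88 TPM in replicate 1. Many Prdm proteins act as transcription regulators in narrow lineages rather than as enzymes. Prdm2 (RIZ) and Prdm4 alone passed 10 TPM in both libraries. Prdm2 stood at 37.98 TPM in replicate 2 and 52.5 TPM in replicate 1 (3656 estimated reads in replicate 2 and 4298 in replicate 1, log2 ratio 0.10, adjusted p = 0.00186). Prdm4 stood at 30.6 TPM in replicate 2 and 28.02 TPM in replicate 1 (1564 estimated reads in replicate 2 and 2267 in replicate 1, log2 ratio -0.20, adjusted p = 4.20e-05). Neither was called.

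The next Prdm genes lay near the detection limit. Prdm10 stood at 3.96 TPM in replicate 2 and 1.41 TPM in replicate 1, and Prdm15 at 3.33 TPM in replicate 2 and 1.03 TPM in replicate 1. Both are zinc finger regulators and were detected. Prdm11 stood at 4.05 TPM in replicate 2 and 0.88 TPM in replicate 1. Prdm16, a regulator of brown fat in mouse, stood at 2.92 TPM in replicate 2 and 0.34 TPM in replicate 1, and Prdm8 at 2.09 TPM in replicate 2 and 0.75 TPM in replicate 1. Prdm6, known from smooth muscle, stood at 1.03 TPM in replicate 2 and 1.38 TPM in replicate 1. Prdm10, Prdm11, Prdm16 and Prdm8 were called higher in replicate 2, with ratios from 1.14 to 1.78 on the log2 scale. Prdm1, which specifies the germ line in mouse embryos, had 10 estimated reads in replicate 2 and 11 in replicate 1 and stayed below 1 TPM. Prdm12 and Prdm13, known from the nervous system, and Prdm14, known from primordial germ cells, had 0 reads in replicate 2 and 1 read each in replicate 1. These 3 genes were within what a count of 0 allows and were not tested.

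Among the arginine methyltransferases, Prmt7 and Prmt1 stood highest by mean level, and both were called higher in replicate 2. In replicate 1 Prmt1 lay below Prmt5, Prmt9, Prmt6 and Prmt3, and with the correction for GC content Prmt7 was not called (0.86). Prmt7 (ENSMUSG00000060098.7, chromosome 8, 106210936 to 106252794), which makes monomethylarginine, reached 61.4 TPM in replicate 2 and 27.3 TPM in replicate 1 (2691 estimated reads in replicate 2 and 664 in replicate 1, log2 ratio 2.36, adjusted p of 0 at the precision of the computation). Prmt1 (ENSMUSG00000052429.13, chromosome 7, 44975989 to 44986568), the main source of asymmetric dimethylarginine in mammalian cells, reached 52.5 TPM in replicate 2 and 4.31 TPM in replicate 1 (681 estimated reads in replicate 2 and 81 in replicate 1, log2 ratio 3.40, adjusted p = 4.76e-151). Prmt1 was matched to its name through 2 of its 8 listed transcripts, because its gene identifier is not in the annotation used for names. Prmt5, the main source of symmetric dimethylarginine, which mouse germ cells need, stood at 22.99 TPM in replicate 2 and 30.8 TPM in replicate 1. Its counts were 770 estimated reads in replicate 2 and 683 in replicate 1 (log2 ratio 0.51, adjusted p = 3.16e-11), so the TPM and the normalised count ordered the libraries in opposite ways.

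The other arginine methyltransferases stood below 10 TPM in both libraries. Prmt6, which methylates arginine 2 of histone H3, stood at 6.41 TPM in replicate 2 and 8.23 TPM in replicate 1. Prmt9, which acts on a splicing factor, stood at 5.59 TPM in replicate 2 and 8.46 TPM in replicate 1 (190 estimated reads in replicate 2 and 456 in replicate 1, log2 ratio -0.92, adjusted p = 2.69e-14). Prmt3, which acts on a ribosomal protein, stood at 4.62 TPM in replicate 2 and 5.57 TPM in replicate 1. Prmt2 stood at 4.71 TPM in replicate 2 and 0.36 TPM in replicate 1 and was called higher in replicate 2 (log2 ratio 3.38). Prmt8, a membrane-bound form known from brain, had 8 estimated reads in replicate 2 and 5 in replicate 1, too few to test. Together the 8 Prmt genes held 158 TPM in replicate 2 and 85.1 TPM in replicate 1.

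Ratios of paralogues within a library do not depend on the library's depth, and 17 pairs were compared on the TPM scale. None of the scales used for the pairs corrected for GC content, which differed within pairs such as Kdm6a (42.5%) and Kdm6b (59.6%). A pair was called where the exact 95% interval excluded 1 on the same side in both libraries. In 7 pairs the first gene was higher in both libraries, in 2 pairs the second was, in 7 pairs the libraries gave opposite orders, and 1 pair was not called. Besides Kdm4d over Kdm4a, the first gene led for Kdm3a over Kdm3b, with a log2 ratio of 3.04 in replicate 2 (interval 2.94 to 3.14) and 4.65 in replicate 1 (interval 4.54 to 4.75). Kdm1a exceeded Kdm1b by 3.83 in replicate 2 (interval 3.64 to 4.02) and 3.49 in replicate 1 (interval 3.36 to 3.61). Kdm5b exceeded Kdm5a by 2.09 in replicate 2 (interval 2.02 to 2.16) and 0.72 in replicate 1 (interval 0.68 to 0.77). In these 4 demethylase pairs the leading gene was also ahead with counts without length scaling and with 1 fixed length per gene. For Kdm4d over Kdm4a, Kdm3a over Kdm3b and Kdm1a over Kdm1b it was ahead on protein-coding transcripts alone as well, a scale that leaves out nearly all of Kdm5a.

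In the other called pairs Prmt7 lay above Prmt9 (3.46 in replicate 2, interval 3.24 to 3.68, and 1.69 in replicate 1, interval 1.52 to 1.86) and Setd1a above Setd1b (0.50 in replicate 2, interval 0.38 to 0.62, and 2.66 in replicate 1, interval 2.32 to 2.995). The brain gene Prmt8 lay below Prmt1, with a log2 ratio of -7.84 in replicate 2 (interval -9.06 to -6.85) and -5.57 in replicate 1 (interval -7.23 to -4.29). Setd5 lay above Kmt2e (1.02 in replicate 2, interval 0.92 to 1.12, and 0.77 in replicate 1, interval 0.71 to 0.83) and Kmt2a below Kmt2b (-3.03 in replicate 2, interval -3.16 to -2.91, and -1.20 in replicate 1, interval -1.40 to -0.99). These last 2 pairs did not keep their order: on protein-coding transcripts alone the ratio in replicate 1 was -0.45 for Setd5 over Kmt2e and 1.20 for Kmt2a over Kmt2b.

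In the remaining pairs but 1, the higher gene depended on the library. Kdm5d over Kdm5c, the Y-linked and X-linked homologues, was -1.42 in replicate 2 (interval -1.69 to -1.15) and 1.11 in replicate 1 (interval 0.89 to 1.33). Kdm6a over Kdm6b was -0.91 in replicate 2 (interval -1.12 to -0.70) and 3.37 in replicate 1 (interval 3.08 to 3.68), and Kmt5b over Kmt5c was -0.45 in replicate 2 (interval -0.65 to -0.25) and 7.50 in replicate 1 (interval 6.52 to 8.71). Kmt2c over Kmt2d was -0.59 in replicate 2 (interval -0.69 to -0.50) and 3.14 in replicate 1 (interval 2.99 to 3.30). Which gene of these pairs is the higher in this testis is therefore not settled by these libraries. The same held for Kdm2a over Kdm2b (-0.62 in replicate 2, interval -0.72 to -0.52, and 0.42 in replicate 1, interval 0.33 to 0.50), Kdm4c over Kdm4a (-1.39 in replicate 2, interval -1.59 to -1.19, and 2.50 in replicate 1, interval 2.25 to 2.76) and Prmt5 over Prmt1 (-1.19 in replicate 2, interval -1.34 to -1.04, and 2.84 in replicate 1, interval 2.50 to 3.19). Kdm4b over Kdm4a was 0.03 in replicate 2 (interval -0.12 to 0.19) and -0.83 in replicate 1 (interval -1.40 to -0.29) and was the pair not called. On protein-coding transcripts alone, Kdm5d lay below Kdm5c in replicate 2 (-2.62), and in replicate 1 the ratio was -0.12 with an interval of -0.36 to 0.13. On that scale Kmt5b exceeded Kmt5c and Prmt5 exceeded Prmt1 in both libraries, but the leading Prmt1 transcript has no class there and is left out.

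**Figure D2:**
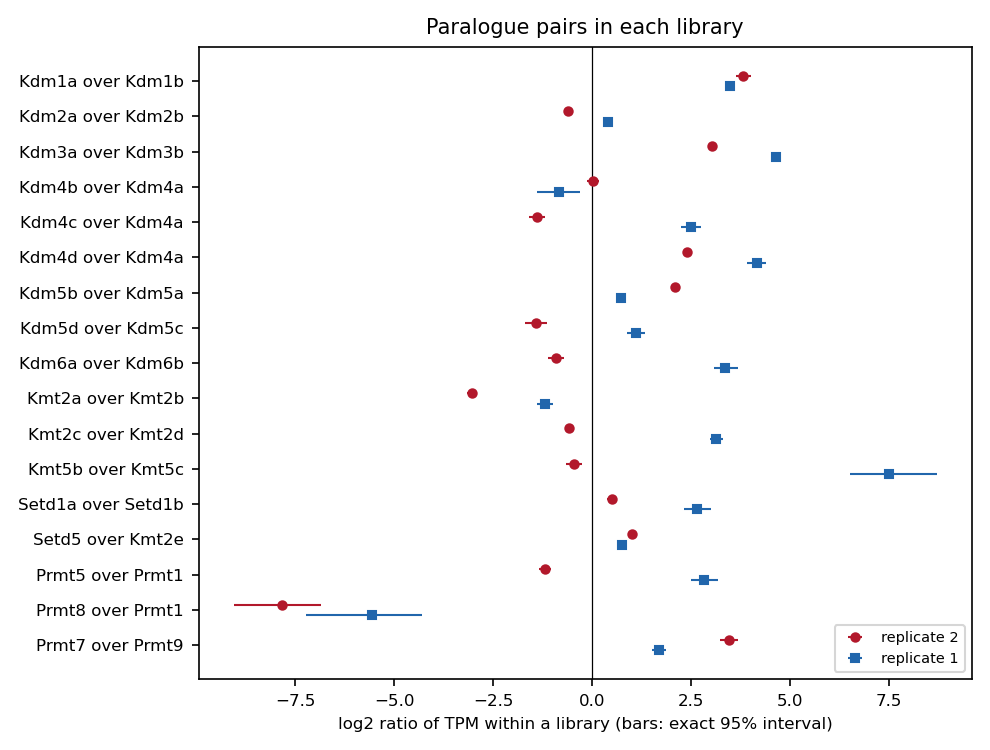
Log2 ratio of TPM of the first over the second gene of 17 paralogue pairs, in replicate 2 (red circles) and replicate 1 (blue squares); bars are exact 95% intervals and cover counting error only. In 7 pairs both libraries lie above 0, in 2 pairs both lie below 0, and in 7 pairs they lie on opposite sides with intervals clear of 0.

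Of the 51 members with enough reads to test, 26 differed between the libraries by the rule, or 51.0%, against 56% of all tested genes. The share higher in replicate 2 was 35.3% (18 members), against 32.1% of all tested genes. The share higher in replicate 1 was 15.7% (8 members), against 23.9%. The share called in either direction lay near that of all tested genes, and the counts describe the libraries. The largest ratios toward replicate 2 among members with a mean of 100 reads or more were those of Kmt5c, Kdm4b, Setd1b, Prmt1, Kmt2b and Setd1a, from 5.55 to 3.10 on the log2 scale. The largest toward replicate 1 were those of Kdm7a, Kdm6a, Kmt2e, Kdm4c, Setd2 and Kdm5d, from -1.59 to -1.17. Among the 26 called members the least extreme adjusted p was that of Prdm8, 1.37e-05. With plain totals in place of scaled library sizes, 20 members were called higher in replicate 2 and 3 in replicate 1, and that setting moved the median log2 ratio of all tested genes to 0.29. The calls lost with it were those of Kdm3a, Kdm5a, Kdm4c, Setd2 and Kdm5d. Of all calls 57.3% were higher in replicate 2 with scaled library sizes and 70.2% with plain totals.

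The ratio followed the GC content of the transcripts. Members called higher in replicate 2 had a GC content of 52.8% to 60.6% (median 57.1%), members called higher in replicate 1 had 39.6% to 46.0% (median 43.8%), and members not called had 41.3% to 55.4% (median 49.9%). Among called members with a GC value, the 2 groups did not overlap. That covered 17 of the 18 higher in replicate 2 and 7 of the 8 higher in replicate 1, as Prmt1 and Kdm5a had none. Spearman's rho between GC content and log2 ratio was 0.915 across 49 members and 0.885 across 18396 tested genes, as a description across genes measured in the same libraries. The middle of the coding sequence of Kmt5c and of Kdm7a, the members at the ends of the ratio, shows the contrast. Capitals mark G and C in 90 coding bases, and both stretches cross exon junctions on GRCm38, at chr7:4745889-4746116 on the plus strand for transcript Kmt5c-201 and at chr6:39151441-39152875 on the minus strand for Kdm7a-201.
Kmt5c: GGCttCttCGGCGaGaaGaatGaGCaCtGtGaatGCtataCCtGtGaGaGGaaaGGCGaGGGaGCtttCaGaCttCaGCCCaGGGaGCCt
Kdm7a: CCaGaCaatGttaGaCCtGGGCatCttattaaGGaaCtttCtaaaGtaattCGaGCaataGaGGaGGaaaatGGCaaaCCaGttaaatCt
The stretch had 54.4% GC in Kmt5c and 37.8% in Kdm7a. Over the whole coding sequence the values were 60.3% in Kmt5c and 45.2% in Kdm7a, and over the transcript 59.6% in Kmt5c and 39.6% in Kdm7a.

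**Figure D3:**
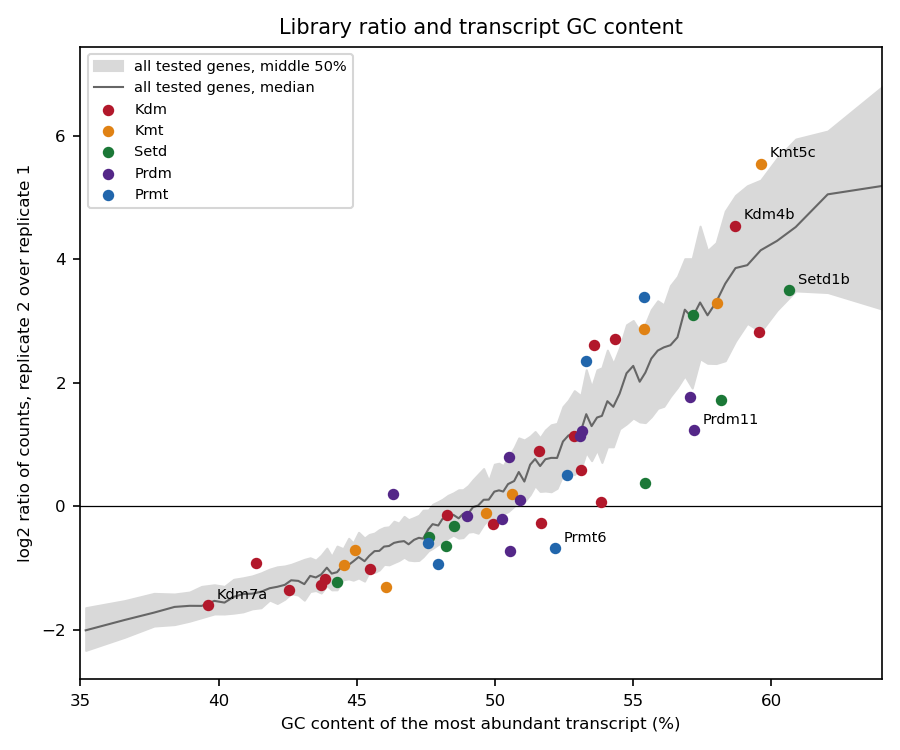
Log2 ratio of normalised counts, replicate 2 over replicate 1, against the GC content of the most abundant transcript for 49 members (coloured points, by subfamily), with the median (line) and the middle 50% (grey band) of all tested genes in 100 bins of GC content. The members climb with GC content along the band of all genes, from Kdm7a at 39.6% GC to Kmt5c at 59.6%.

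When the expected ratio of each gene was set to the median of genes of similar GC content, 15 of the 51 members were called, or 29.4%, against 20.2% of all tested genes. Of these, 5 were higher in replicate 2 (11.2% of all tested genes were) and 10 were higher in replicate 1 (9.01% of all tested genes). The 5 were Prmt1, Kmt5c, Kdm4a, Prmt2 and Kdm8, with corrected log2 ratios of 3.41, 1.40, 1.31, 1.21 and 1.10. Prmt1 had no GC value, so its ratio is in effect uncorrected. Its transcript Prmt1-202 had 54.7% GC, and tested genes near that value had a median log2 ratio of 2.15. The 10 were Kdm5a, Kdm2b, Kdm6b, Prdm11, Prdm16, Prdm6, Prmt6, Setd6, Setd1b and Setd4, between -1.89 and -1.03. Kdm5a also had no GC value. The other GC values were those of 1 transcript per gene, the one with the highest mean TPM. In Prdm16 it was Prdm16-213 (57.1% GC), with 4.29 reads in replicate 2, while Prdm16-206 (53.3% GC) had 73.3. In Prdm11 it was Prdm11-201 (57.2% GC), with 84.2 reads there, while Prdm11-202 (53.1% GC) had 188. In Setd4 it was Setd4-206 (58.2% GC), with 5.38 reads there. These calls were not tested with other GC values. Of the 26 members called without the correction, 6 were called in the same direction with it. Of the others, Kdm6b, Setd1b, Setd4, Prdm11 and Prdm16 were called in the opposite direction and 15 were not called. Of those called higher in replicate 2, these were Kdm4b, Kdm5c, Kmt2b, Kmt2d, Setd1a, Prdm8, Prdm10 and Prmt7. Of those called higher in replicate 1, they were Kdm3a, Kdm4c, Kdm5d, Kdm6a, Kdm7a, Kmt2e and Setd2. That leaves Kdm5a as the 1 call toward replicate 1 made both ways, and without a GC value its ratio is in effect uncorrected. Its transcript Kdm5a-201 had 43.3% GC. Tested genes near that value had a median log2 ratio of -1.12, against -1.06 for Kdm5a.

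The length assigned to a gene also differed between the libraries and enters its TPM. In 14 of the 51 members the effective length differed by more than 1.5-fold, and it was longer in replicate 2 in 9 of them. For Prmt5, with a 2.40-fold longer effective length in replicate 2, the log2 ratio of TPM was -0.42 and that of normalised counts 0.51, and for Prdm2, with a 1.86-fold longer one, they were -0.47 and 0.10. The most abundant transcript was the same in both libraries in 27 of the 40 detected members (67.5%), against 75.3% of detected protein-coding genes. Among genes with more than 1 listed transcript the shares were 64.9% of 37 members and 65.8% of protein-coding genes. That transcript was under 2000 bases in 4 members in replicate 2 and in 11 members in replicate 1, and its median length was 4429 bases in replicate 2 and 3142 bases in replicate 1. The effective lengths and these transcript lengths were not set beside all genes, so they are not a result about the members.

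Kdm1a, Prmt5, Prmt7 and Setd1a were assigned mostly to long coding transcripts in replicate 2 and mostly to other transcripts in replicate 1. The coding transcript Kdm1a-202, of 3028 bases, held 78.3% in replicate 2 and 20.5% in replicate 1 of the level of Kdm1a, and Kdm1a-207, of 751 bases, held 0% in replicate 2 and 57.6% in replicate 1. For Prmt5, the coding transcript Prmt5-201 held 95.9% in replicate 2 and 10.1% in replicate 1, and Prmt5-202, annotated as a target of nonsense-mediated decay, held 0% in replicate 2 and 74.7% in replicate 1. Prmt7-201 held 94.5% in replicate 2 and 11.99% in replicate 1 of Prmt7, and the 1094-base Prmt7-203 0% in replicate 2 and 55.5% in replicate 1. Setd1a-202 held 82.3% in replicate 2 and 10.6% in replicate 1 of Setd1a, and the 730-base Setd1a-203 0% in replicate 2 and 78.5% in replicate 1. In each of these genes the short transcript was listed at 0 in replicate 2. The retained-intron transcript Kmt2b-205 held 17.02% in replicate 2 and 68.7% in replicate 1 of Kmt2b. Other members kept 1 transcript: Setd2-201, Prdm4-201 and Kdm3b-201 held 100% in both libraries, Kdm4d-201 held 98.3% in replicate 2 and 98.1% in replicate 1 and Kdm3a-201 77.3% in replicate 2 and 96.1% in replicate 1.

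**Figure D4:**
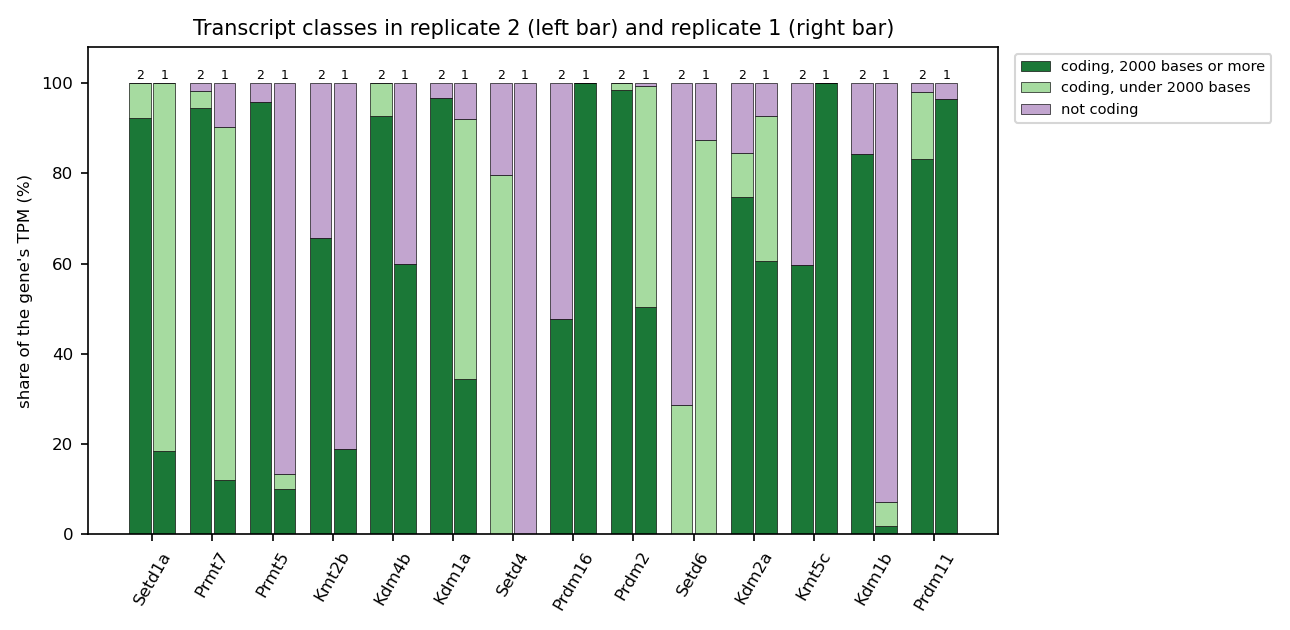
Share of each gene's TPM (%) in coding transcripts of 2000 bases or more, shorter coding transcripts and transcripts not annotated as coding, for the 14 members whose effective length differed by more than 1.5-fold, in replicate 2 (left bar) and replicate 1 (right bar). In Setd1a, Prmt7, Prmt5, Kmt2b, Kdm4b, Kdm1a, Prdm2, Kdm2a and Kdm1b the long coding share is the larger in replicate 2, and in Kmt5c, Prdm16 and Prdm11 it is the larger in replicate 1. The shares in replicate 1 rest on few reads in Kmt5c (8), Setd4 (22), Kdm4b (35) and Prdm16 (62).

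Transcripts annotated as protein-coding held a median of 95.3% of the level of the 40 detected members in replicate 2 and 92.9% in replicate 1. The coding share was under 50% in 5 members in replicate 2 and in 8 members in replicate 1. On the Y chromosome, retained-intron transcripts led for Kdm5d in both libraries, Kdm5d-205 with 36.3% in replicate 2 and 9.52% in replicate 1 and Kdm5d-208 with 0% in replicate 2 and 37.1% in replicate 1. Prdm6 was assigned mostly to the noncoding transcript Prdm6-202, with 83.6% in replicate 2 and 83.99% in replicate 1. Transcripts with no class in the annotation used held 61.8% in replicate 2 and 37.0% in replicate 1 of Kdm5a, and noncoding ones 35.98% in replicate 2 and 60.9% in replicate 1. For Prmt1, transcripts with no class held 82.3% in replicate 2 and 92.4% in replicate 1. Splits between transcripts are estimates and carry no replicate error.

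For 10 members a gene on the opposite strand overlapped and had 20 reads or more, and whether strand was used in counting is not given in the sources used here. Reads of Kdm1a and Luzp1, Kdm1b and Dek, Kmt2e and Srpk2, and Kdm2b and Rnf34 may therefore be hard to separate, since each partner held more reads than the member over both libraries. The others were Kdm4c, Kdm5a, Kdm6b, Kdm7a, Prdm8 and Prmt7, whose partners held fewer reads than the member over both libraries. The partners of Prmt7 and Prdm8 had most of their reads in replicate 2, where both members were called higher. Smpd3, the partner of Prmt7, had 1128 reads in replicate 2 and 32 in replicate 1. A730035I17Rik, the partner of Prdm8, had 58 reads in replicate 2 and 0 in replicate 1. A link of these overlaps to the calls was not tested.

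Genes of the same pathways that the names do not cover were broadly expressed as well. Of 57 such genes in 3 lists, 50 were detected, and 30 were called between the libraries, where 56% of all tested genes were. Of the 30, 17 were higher in replicate 2 and 13 in replicate 1, against 32.1% of all tested genes higher in replicate 2 and 23.9% in replicate 1. Of 21 other methyltransferases 19 were detected, with 5 called higher in each library. Of 13 other demethylases and Jumonji proteins 9 were detected, with 6 called higher in replicate 2 and 2 in replicate 1. Of 23 subunits and cofactors 22 were detected, with 6 called higher in each library. The subunits had a median level of 37.8 TPM in replicate 2 and 40.9 TPM in replicate 1, above the members' medians of 10.4 TPM in replicate 2 and 5.17 TPM in replicate 1.

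The 10 highest of these genes by mean level were mostly subunits. Psip1, a chromatin reader that binds methylated H3K36 and partners MLL proteins, stood at 242 TPM in replicate 2 and 641 TPM in replicate 1 and was called higher in replicate 1. Dpy30 and Ash2l, core subunits of the H3K4 methyltransferase complexes, stood at 211 TPM in replicate 2 and 281 TPM in replicate 1 and at 138 TPM in replicate 2 and 158 TPM in replicate 1. Hdac1 and Hdac2, deacetylases that partner Kdm1a, stood at 151 TPM in replicate 2 and 96.6 TPM in replicate 1 and at 39.7 TPM in replicate 2 and 105 TPM in replicate 1. Rbbp4 and Rbbp7, histone chaperone subunits, stood at 92.7 TPM in replicate 2 and 132 TPM in replicate 1 and at 75.05 TPM in replicate 2 and 132 TPM in replicate 1. The H3K36 methyltransferase Nsd2 stood at 64.98 TPM in replicate 2 and 188 TPM in replicate 1, the H3K9 methyltransferase Ehmt2 (G9a) at 194 TPM in replicate 2 and 19.7 TPM in replicate 1 and the H3K27 methyltransferase Ezh2 at 65.4 TPM in replicate 2 and 115 TPM in replicate 1. Ehmt2 was called higher in replicate 2, and Ezh2, Hdac2 and Rbbp7 were called higher in replicate 1.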

How the data were processed

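PolyA mRNA of testis from 1 mouse was sequenced in 2 technical libraries. Per the deposited notes, the authors quantified each library separately on mm10 with annotation release M4. The name of the aligner or quantifier is not given in the sources used here. Both kinds of deposited table, gene and transcript, hold expected counts, TPM and FPKM, and the transcript tables also give the percent of a gene's level held by every transcript. The deposited posterior mean TPM was used as an alternative level, and the deposited posterior SD of each count was not used for any result. Names and classes came from GENCODE M21 on GRCm38 (mm10), matched by identifier for 42462 of 43346 genes and through transcripts for 143 more. A name or class can differ between M4 and M21.

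Members, gene lists, pairs and tests were chosen with earlier results of these data known. Expected counts were rounded and compared by an exact two-sided conditional binomial test with library sizes scaled by TMM (edgeR 4.0.16, factors 1.11 in replicate 2 and 0.904 in replicate 1). The Benjamini-Hochberg adjustment ran over 18581 genes, those averaging at least 10 counts, and 0.5 was added to each count for log2 ratios. The test compares the reads of 2 libraries and not conditions or animals. Paralogue ratios have exact Clopper-Pearson 95% intervals on length-scaled counts. Intervals and the floor of 3 counts cover counting error only, since these reads carry no molecular identifiers and are not independent molecules. GC content was that of the most abundant transcript and was known for 99.0% of tested genes. Alternatives were other detection limits, posterior mean TPM, FPKM, coding transcripts, scalings (plain totals, DESeq2 1.42.0 size factors), filters, ratio limits, an edgeR exact test and GC content, and a fixed length per gene was added after seeing the data. The binomial test was checked on simulated counts. Promoter sequences came from RefSeq on GRCm38.p6, and coding sequences from GENCODE M21.

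Values of both libraries are given for members at 1 TPM or more in either library, except 1 member that is counted but not reported here by name. Full statistics went to the 3 highest of each subfamily, members on X or Y, members of the pairs and the 6 largest ratios each way among called members with a mean of 100 counts or more. Of the related genes, the 10 highest by mean TPM are named. Other software was scipy 1.17.1, pandas 2.3.3 and numpy 2.4.6 under Python 3.11.15, with R 4.3.3.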

Additional observations from a re-analysis of the deposited data

How the results depend on the processing

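With a limit of 5 TPM, 26 members were detected, against 40 at 1 TPM, and the other detection settings gave 35 to 50 (50 in replicate 2 alone, 40 in replicate 1 alone). The median level was 10.36 TPM in replicate 2 alone and 5.17 TPM in replicate 1 alone, and the median coding share was 95.3% in replicate 2 alone and 92.9% in replicate 1 alone. Of the 26 members called between the libraries, 12 remained at a ratio limit of 4, and 45 were called with no ratio limit. The 8 members called higher in replicate 1 became 3 with plain totals, 21 with no ratio limit, 0 at a ratio limit of 4 (where 501 of all genes were called that way) and 7 with DESeq2 size factors. All genes called numbered 10400 in the main comparison, 15532 with no ratio limit and 4375 at a ratio limit of 4. The GC correction called 15 members, 5 of them higher in replicate 2, and 3747 genes in all. It changed the sign of the log2 ratio of 10 called members. Kdm6b (to -1.32), Setd4 (-1.89), Setd1b (-1.03), Prdm16 (-1.27) and Prdm11 (-1.82) were called in the opposite direction. Kmt2b (to -0.017), Kdm5c (-0.027), Prdm8 (-0.082), Prdm10 (-0.00066) and Kdm7a (0.015) were not called. Those expected ratios are medians of genes of similar GC content, so a member with a smaller ratio than such genes turns negative and one with a larger ratio turns positive. Of the 17 pairs, 16 were called in replicate 2 alone and 17 in replicate 1 alone, where agreement between libraries is not asked for, against 9 in both. Without length scaling 11 pairs were called, and with 1 length per gene 9. On those scales Kdm4b lay below Kdm4a in both libraries, and Kdm2a over Kdm2b took opposite directions on the 2 scales. The edgeR exact test with an assumed coefficient of variation of 0.1 called the same 26 members. The comparison between libraries cannot leave out a library, since 1 library would remain. No paired analysis was possible because the series has 1 group. Depth limits the 4 members with too few reads to test, Prdm12, Prdm13, Prdm14 and Prmt8.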

Other observations

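Other sex-linked genes of these pathways, chosen after their values were seen, stood near the sex-linked demethylases or above them. Uty, the Y-linked homologue of Kdm6a, stood at 3.72 TPM in replicate 2 and 11.3 TPM in replicate 1, near the 3.79 TPM of Kdm6a in replicate 2 and 7.82 TPM in replicate 1. Phf8, an X-linked demethylase of H3K9 and H4K20, stood at 23.1 TPM in replicate 2 and 32.9 TPM in replicate 1. Suv39h1, the X-linked H3K9 methyltransferase, stood at 7.56 TPM in replicate 2 and 6.34 TPM in replicate 1, while its autosomal relative Suv39h2, known from testis, stood at 26.9 TPM in replicate 2 and 60.55 TPM in replicate 1. The X-linked chaperone subunit Rbbp7 was the highest sex-linked gene of the lists, at 75.05 TPM in replicate 2 and 131.8 TPM in replicate 1.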
